A study of Homo sapiens with 4 samples.

Results

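The kinesin motor family was examined in 293T cells with and without a reduction of FOXP4. Kinesins are proteins that hydrolyse ATP to move along microtubules or to shorten them. Some build and separate the mitotic spindle or complete cytokinesis, and others carry vesicles, organelles, RNA or the building blocks of cilia through the cytoplasm. Most walk towards the growing plus end of the microtubule, while kinesin-14 motors walk towards the minus end. Members were taken as all rows of the count table whose symbol starts with KIF followed by a digit or the letter C, which gave 42 of 15218 genes. Of these, 41 encode motors, and the remaining row, KIF1BP, encodes a kinesin-binding protein and was kept apart. The motors were split into 12 mitotic kinesins (KIF2C, KIF4A, KIF11, KIF14, KIF15, KIF18A, KIF18B, KIF20A, KIF20B, KIF22, KIF23 and KIFC1) and 29 others. No antisense RNA or pseudogene was among the matching rows (0 of 42).

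RNA sequencing compared 2 control libraries (FOXP4_Con) with 2 libraries of FOXP4-depleted cells (FOXP4_KO1) of the human embryonic kidney line HEK293T, which expresses large T antigen from SV40. The sources differ on the perturbation: the results text describes CRISPR-Cas9 knockout, the methods describe shRNA virus with puromycin selection, and the labels give a knock down. The KO number is the same in both titles, so the KO cells are read as a single line, and no source says whether the replicates were separate cultures. The p-values therefore set the difference between the groups against the spread between libraries of the same group. That spread may be technical, so the p-values may not extend beyond these libraries. FOXP4 itself was counted 2562 and 2463 times in the control and 713 and 886 times in KO cells, a log2 fold change of −1.78 ± 0.19 (SE, edgeR adjusted p = 0.0038), so its RNA fell but was not lost. Libraries held between 36393224 and 43057305 counts, and mitochondrial transcripts took 4.79% to 6.84% of them, the highest share in FOXP4 KO library 2. The control libraries stood apart from each other on the second principal component of log2 CPM (13.9% of the variance). All 7 markers listed for this line were detected. Among them the neurofilament gene NEFM rose by 1.97 ± 0.45 on the log2 scale (SE, edgeR adjusted p = 0.025). Its counts were far apart in the control libraries, at 2715 and 1130, against 8339 and 8772 in KO cells. The intermediate filament gene VIM fell by 1.99, and PAX2 was low at 1.46 to 4.06 TPM. The part of these marker genes in the changes of motors best known from neurons was not tested. Of blood and endothelial markers, PTPRC was at most 0.018 TPM and HBB was listed at 0 TPM in all 4 libraries.

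Promoter sequence was described for both subgroups, with no test of a difference. Genes expressed in G2 and mitosis often carry a cell cycle genes homology region (CHR, TTTGAA) close to the start site, bound by the MuvB complexes that also contain MYBL2 or recruit FOXM1, and a CCAAT box bound by NF-Y nearby. Both strands of the 250 bases before each RefSeq start site (GRCh38.p14) were searched. All 12 mitotic kinesins and 21 of the other motors had such a window. TTTGAA was found for 5 mitotic kinesins (5 of 13 windows, 38.5%) and for 1 other motor, KIF5B (1 of 29 windows, 3.45%), against 13.3% of 35116 windows of all genes. CCAAT was found in 76.9% of the windows of mitotic kinesins, 34.5% of those of other motors and 32.0% of all windows. The last 80 bases before the start site are shown for the 5 mitotic kinesins with a CHR because 1 of them, KIF15, was the single mitotic motor that passed the test below, and the other 4 did not. Capitals mark TTTGAA or CCAAT, or their reverse complements TTCAAA and ATTGG.
KIF15 (chr3:44761714-44761793, + strand): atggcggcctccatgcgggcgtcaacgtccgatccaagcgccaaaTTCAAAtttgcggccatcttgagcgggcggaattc
KIF11 (chr10:92593050-92593129, + strand): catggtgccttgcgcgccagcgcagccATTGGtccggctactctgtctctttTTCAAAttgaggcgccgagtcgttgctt
KIF18A (chr11:28108157-28108236, − strand): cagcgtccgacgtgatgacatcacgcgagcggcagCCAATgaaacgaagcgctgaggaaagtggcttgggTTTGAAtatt
KIF23 (chr15:69414269-69414348, + strand): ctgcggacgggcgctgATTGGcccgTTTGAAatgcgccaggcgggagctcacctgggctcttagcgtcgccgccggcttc
KIF4A (chrX:70290024-70290103, + strand): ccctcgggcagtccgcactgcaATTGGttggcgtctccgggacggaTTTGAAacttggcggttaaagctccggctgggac
KIF15 is the 1 sequence of the 5 without a CCAAT box in its window. A match of this kind describes the letters and does not show binding.

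A core of forkhead motifs, TAAACA or its reverse complement TGTTTA, was searched in the same windows because FOXP4 is a forkhead factor. It was present in 3860 of 35116 windows, in 0 of 13 windows of mitotic kinesins and in 1 of 29 windows of the other motors, that of KIF3B. KIF3B was among the motors that fell, and its 160 bases before the start site (chr20:32277491-32277650, + strand) are shown with the core in capitals.
KIF3B: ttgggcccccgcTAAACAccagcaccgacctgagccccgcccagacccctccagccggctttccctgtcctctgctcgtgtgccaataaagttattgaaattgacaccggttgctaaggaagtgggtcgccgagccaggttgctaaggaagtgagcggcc
Windows were at hand for 9 of the 13 motors that passed the test, and KIF3B was the 1 with a match.

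Mitotic kinesins made up most of the motor RNA in every library, and the summed level of all motors was similar in both groups. Summed over all 42 motors of the TPM table (transcript counts scaled by gene length and library), the level was 1384 ± 10.5 TPM (SD, n = 2) in the control and 1327 ± 33.2 TPM (SD, n = 2) in the KO cells. Mitotic kinesins took 59.9% and 57.8% of this sum in the control libraries against 60.5% and 59.1% in the KO libraries. KIF22, a chromosome-binding motor, was the most abundant, at 193 to 199 TPM over the 4 libraries. The levels of KIF2C, KIF18B, KIFC1, KIF1C and KIF20A in the control lay between 82.2 and 98.8 TPM, and their ranges overlapped in part. At the other end KIF4B, KIF19, KIF25 and KIF6 were below 0.6 TPM in both control libraries, and KIF2B was listed at 0 TPM in all 4 libraries. The columns of the KO group in the TPM table are numbered, but these numbers were not matched to replicates.

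**Figure D1:**
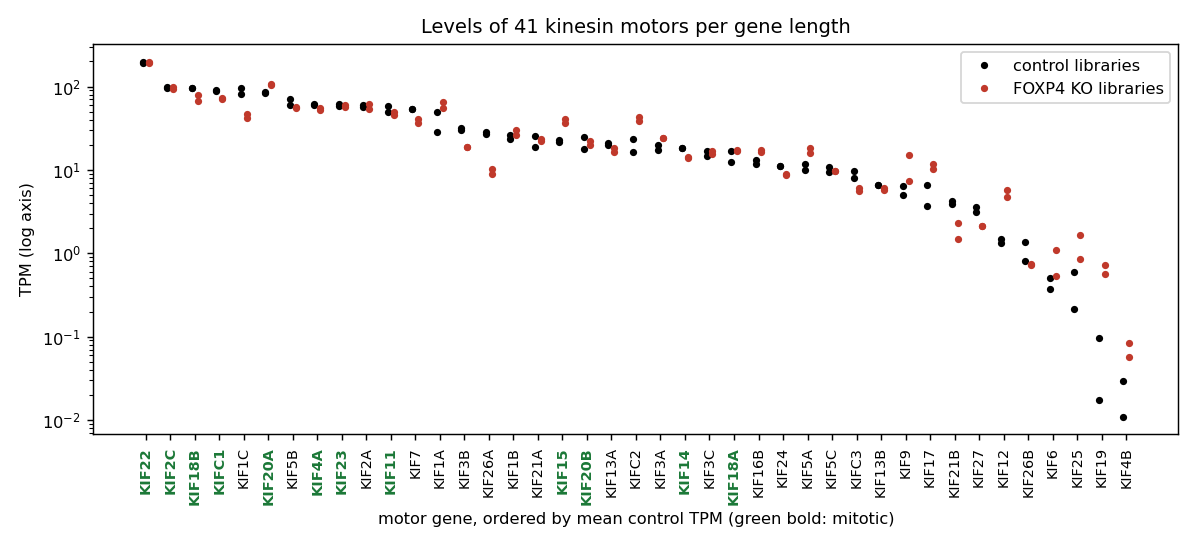
Level of each of 41 motors in TPM (vertical axis, log scale), in the 2 control libraries (black) and the 2 FOXP4 KO libraries (red), ordered by the mean of the control, with mitotic kinesins in green. Mitotic kinesins occupy most of the upper end, from KIF22 at 193 TPM or more downwards, and the motors that rose most, such as KIF19 and KIF25, lie at the low end.

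Of the 41 motors, 40 passed edgeR's filter on low counts. Then FOXP4 KO cells had 8 motors higher and 5 lower with the quasi-likelihood test of edgeR, at an adjusted p below 0.05 over all 14620 genes tested, and 27 did not pass. Called motors made up 32.5% of those tested, against 25.8% of all genes (13.8% higher and 12.1% lower), so the family as a whole lay close to the background. In bulk RNA, fewer cells of a type and less RNA per cell cannot be told apart. The 2 subgroups differed in their counts. Of 12 mitotic kinesins, 1 was called (8.33%), and of 28 other motors, 12 were called (42.9%), 7 higher and 5 lower. The median log2 fold change was −0.04 over the mitotic kinesins and 0.03 over the others, beside 0.01 over all genes, while the median size of the change without its sign was 0.21 and 0.54, beside 0.35 over all genes. No set test was made, and the difference between the subgroups was not tested. Groups did not overlap in normalized CPM for 32 of 40 motors, beside 68.7% of all genes.

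**Figure D2:**
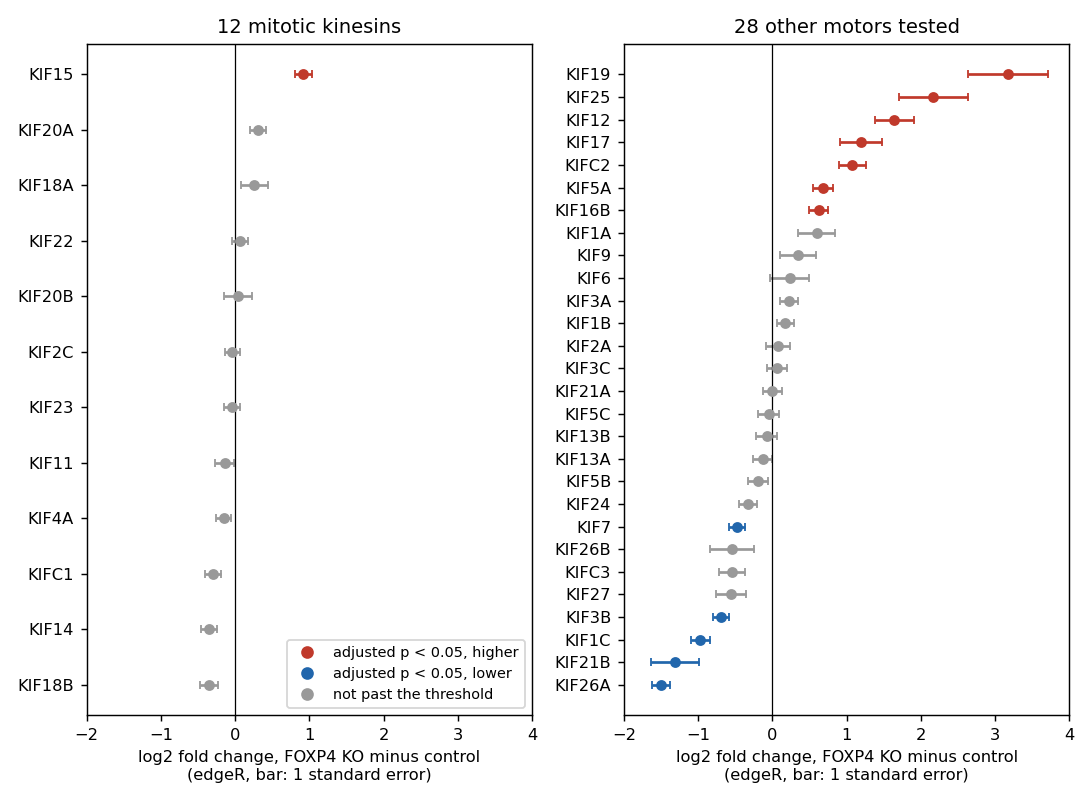
Log2 fold change of each motor tested, FOXP4 KO minus control, with bars of 1 standard error from edgeR (2 libraries per group), for mitotic kinesins (left) and other motors (right). All mitotic kinesins but KIF15 lie within 0.36 of 0, and the other motors spread from −1.50 (KIF26A) to 3.17 (KIF19).

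KIF15 was the single mitotic kinesin that rose, and the log2 fold changes of the other 11 lay between −0.36 and 0.31. KIF15, a kinesin-12 that slides spindle microtubules and can take over from KIF11 in keeping the spindle bipolar, had 1595 and 1909 counts in the control libraries against 3434 and 3708 in the KO libraries. Both KO libraries were higher than both control libraries. After normalization it rose from 44.6 ± 0.565 CPM to 84.2 ± 6.43 CPM (SD, n = 2 each), a log2 fold change of 0.92 ± 0.12 (SE, edgeR adjusted p = 0.0058). It lies on chromosome 3 from 44761717 to 44873376 (ENSG00000163808; GRCh38, GENCODE v29). The 50 tested neighbours of KIF15 on that chromosome, 25 on each side, had a median log2 fold change of 0.34, and 11 of them were higher and 4 lower, so the gene stood 0.58 above its surroundings, and the part of the region in the result was not tested.

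KIF11, the kinesin-5 that pushes spindle poles apart, had 4966 and 5072 counts in the control against 5223 and 4713 in KO cells, a log2 fold change of −0.14 with overlapping groups (adjusted p = 0.45 from edgeR). The ratio of KIF15 to KIF11 in TPM was 0.372 and 0.452 in the control libraries against 0.731 and 0.881 in the KO columns. KIF23, the motor of the centralspindlin complex of cytokinesis, had a log2 fold change of −0.05, and KIF2C, which depolymerizes microtubules at kinetochores, of −0.04. KIF22 stood at 0.07 and KIF20B, a cytokinesis motor, at 0.03.

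A few spindle motors came close to the threshold. KIF18B, which depolymerizes astral microtubules, missed it with a log2 fold change of −0.36 (edgeR adjusted p = 0.081), KIF14, which acts in cytokinesis, with −0.35 (adjusted p = 0.060), and KIFC1, a kinesin-14 that clusters spindle poles, with −0.30 (adjusted p = 0.079). In these 3 genes both KO libraries lay below both control libraries. KIF20A, a kinesin-6 of the central spindle, went the other way with 0.31 (adjusted p = 0.076). The groups of KIF18A, a kinesin-8 that dampens chromosome movements, did not overlap either, at 0.26 (adjusted p = 0.33), and KIF4A, a chromosome-bound kinesin-4, stood at −0.15. No mitotic kinesin was lower with edgeR or limma-voom at the adjusted threshold (0 of 12). At an unadjusted p under 0.05 from edgeR, 3 of 12 were lower and 2 higher, beside 2833 lower and 3158 higher of 14620 genes. From the same counts DESeq2 called these 3, KIF14, KIF18B and KIFC1, lower. CENPE, the kinetochore kinesin-7 whose symbol is outside the rule, stood at −0.20 (edgeR adjusted p = 0.43), and STARD9, another such kinesin, was higher with 0.43 (edgeR adjusted p = 0.04996).

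Among the motors outside the mitotic group, KIF26A showed the steepest fall. KIF26A is an unconventional kinesin-11 that binds microtubules without moving along them and, in mice, restrains GDNF signalling in enteric neurons. It had 3095 and 3958 counts in the control against 1271 and 1404 in KO cells, and its range in the KO cells lay well below that of the control. The level went from 89.5 ± 3.06 CPM to 31.5 ± 2.91 CPM (SD, n = 2 each), a log2 fold change of −1.50 ± 0.12 (SE, edgeR adjusted p = 0.0021), and it lies on chromosome 14 from 104138723 to 104180894. Of its neighbours 11 were lower and 3 higher among 47, with a median of −0.23. The related KIF26B had 105 and 210 counts in the control against 118 and 111 in KO cells, and its log2 fold change of −0.54 did not pass (adjusted p = 0.22), with the control libraries 1.64-fold apart in CPM.

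Within the kinesin-3 family, 1 motor of vesicle transport fell and another rose. KIF1C, which carries integrins, dense core vesicles and RNA to the cell periphery, had 9773 and 12776 counts in the control against 5709 and 6671 in KO cells. It fell from 286 ± 14.2 CPM to 146 ± 19.3 CPM (SD, n = 2 each), a log2 fold change of −0.97 ± 0.13 (SE, edgeR adjusted p = 0.0068). KIF16B, which moves early endosomes, rose by 0.62 ± 0.12 on the log2 scale, from 975 and 1164 counts to 1758 and 1799 (SE, edgeR adjusted p = 0.017). On log2(TPM + 1) the difference of KIF16B was 0.41 and did not pass (limma-trend adjusted p = 0.072). KIF16B lies in a part of chromosome 20 where 24 of 50 neighbours were higher and 2 lower, with a median of 0.48, so its own excess over the region was 0.15, and the part of the region in the result was not tested. KIF1A, the neuronal carrier of synaptic vesicle precursors, had 3986 and 8532 counts in the control against 9459 and 10410 in KO cells. Its control libraries differed 1.76-fold in CPM, and its log2 fold change of 0.59 did not pass (adjusted p = 0.13), although it was 1.05 without control library 2 (adjusted p = 0.014) and 0.22 without control library 1 (adjusted p = 0.30). KIF1C took 42.8% and 41.6% of the kinesin-3 TPM in the control libraries and 23.8% in both KO columns, and KIF1A took 14.8% and 21.7% in the control libraries against 31.4% and 32.9% in the KO columns. KIF1B, KIF13A and KIF13B, which also carry vesicles or mitochondria, stood at 0.18, −0.13 and −0.08 and did not pass.

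In the kinesin-2 family, whose KIF3A and KIF3B subunits form the motor of anterograde transport in cilia, the summed level stayed nearly the same while its makeup differed. The sum was 70.9 ± 0.724 TPM in the control and 70.1 ± 2.20 TPM in the KO cells (SD, n = 2 each). KIF3B had 3408 and 3888 counts in the control against 2485 and 2400 in KO cells, a fall from 93.1 ± 4.33 CPM to 57.5 ± 0.140 CPM and a log2 fold change of −0.69 ± 0.11 (SE, edgeR adjusted p = 0.0091). KIF3A did not pass, at 0.22 (adjusted p = 0.23), nor did KIF3C, at 0.06. The KIF3B to KIF3A ratio in TPM was 1.58 and 1.75 in the control libraries against 0.791 and 0.770 in the KO columns. KIF17, a homodimeric kinesin-2 that carries NMDA receptor subunits in mouse neurons, had 244 and 519 counts in the control against 855 and 983 in KO cells. It rose by 1.19 ± 0.28 on the log2 scale (SE, edgeR adjusted p = 0.027), with the control libraries 1.75-fold apart, and the rise was 0.83 without control library 1 and 1.64 without control library 2.

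Kinesin-1, the main carrier of organelles towards the cell periphery, changed in 1 of its 3 heavy chains. KIF5A, the form best known from neurons, had 1028 and 1422 counts in the control against 2000 and 2214 in KO cells, and rose by 0.68 ± 0.14 on the log2 scale (SE, edgeR adjusted p = 0.018). Its share of kinesin-1 TPM was 10.9% and 14.5% in the control libraries against 19.5% and 21.7% in the KO columns. KIF5B, the ubiquitous form, stayed the most abundant with 66.8% to 77.5% of the TPM, and KIF5B and KIF5C did not pass, at −0.19 and −0.05.

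**Figure D3:**
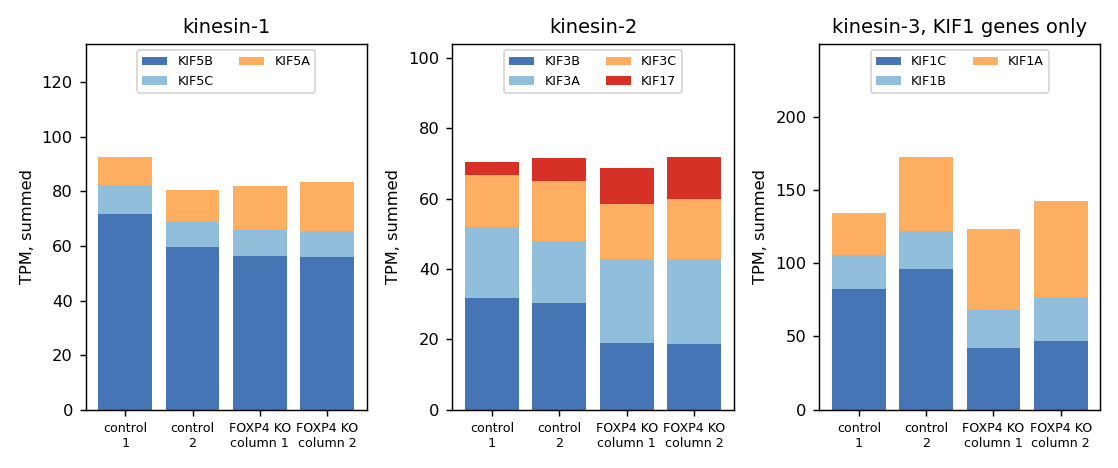
Stacked TPM of the kinesin-1, kinesin-2 and KIF1 genes (vertical axis, starting at 0) in the 2 control libraries and the 2 FOXP4 KO columns. KIF3B shrinks from 31.8 and 30.5 TPM to 18.9 and 18.7 TPM and KIF17 grows within a kinesin-2 total of about the same height, and KIF1C is smaller in both KO columns.

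Of 5 kinesin-4 motors tested, 2 were lower and 0 higher. KIF7, the Hedgehog regulator that organizes the tip of the primary cilium, had 4045 and 4860 counts in the control against 3335 and 3575 in KO cells, a fall of 0.48 ± 0.11 on the log2 scale (SE, edgeR adjusted p = 0.027). Its exons overlap TICRR on the other strand over 11.8% of their bases, TICRR itself had a log2 fold change of −0.37, and reads of the pair could be told apart only if strand was used in counting, which no source states. KIF21B, a neuronal motor that slows microtubule growth, had 569 and 723 counts in the control against 189 and 369 in KO cells. It fell from 16.4 ± 0.486 CPM to 6.60 ± 3.14 CPM (SD, n = 2 each), a log2 fold change of −1.31 ± 0.33 (SE, edgeR adjusted p = 0.032), and FOXP4 KO library 1 carried the lower value, so the change was −0.89 without it and −1.90 without FOXP4 KO library 2. KIF27 and KIF21A did not pass, at −0.56 (adjusted p = 0.088) and 0.00. KIF4B had 1 and 3 counts in the control against 6 and 8 in KO cells, was not tested, and its near-identical parent gene KIF4A can share its reads.

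The remaining motors that rose were of low or moderate level. KIFC2, a minus-end-directed kinesin-14 of neurons, had 1039 and 1766 counts in the control against 3022 and 3259 in KO cells, a rise from 35.1 ± 8.19 CPM to 74.0 ± 5.59 CPM and a log2 fold change of 1.08 ± 0.18 (SE, edgeR adjusted p = 0.011). Of its 43 neighbours on chromosome 8, 12 were lower and 3 higher. Exons of FOXH1 on the other strand cover 17.8% of its exon bases, and FOXH1 itself stood at 1.51 (edgeR adjusted p = 0.027), and whether the pair shares reads was not tested. KIFC1 and KIFC2 took 78.0% and 14.4% of the kinesin-14 TPM in control library 1, and 73.2% and 18.7% in control library 2. Their shares were 61.2% and 32.4% in the first KO column and 58.8% and 35.7% in the second, and the kinesin-14 sum was 119 TPM in both groups.

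KIF12, a kinesin-12 relative of KIF15 known from kidney and bile duct epithelium, had 37 and 47 counts in the control against 157 and 127 in KO cells. It rose by 1.64 ± 0.26 on the log2 scale (SE, edgeR adjusted p = 0.0097), so both kinesin-12 genes were higher. KIF25, a kinesin-14 of the centrosome, had 7 and 8 counts in the control against 46 and 28 in KO cells, a log2 fold change of 2.17 (adjusted p = 0.022). KIF19, a kinesin-8 that shortens microtubules at the tips of motile cilia in mice, had 2 and 8 counts in the control against 45 and 53 in KO cells, a log2 fold change of 3.17 ± 0.54 (SE, edgeR adjusted p = 0.011). The change of KIF19 was 2.60 without control library 1 and 4.27 without control library 2, and KIF25 did not pass with any library left out. From so few counts the ratio of KO to control is loosely bounded, at 9.07 for KIF19 (95% interval 4.73 to 19.5) and 4.57 for KIF25 (2.60 to 8.57), by exact binomial intervals of the summed counts that cover counting error only. KIF9 and KIF6, the kinesin-9 motors of motile cilia, did not pass with edgeR, at 0.35 and 0.23, nor did the kinesin-13 motors KIF2A (0.07) and KIF24 (−0.33). The kinesin-14 KIFC3 did not pass with edgeR (−0.54, adjusted p = 0.062) and was lower with DESeq2 (−0.56, adjusted p = 0.035). Strand would also be needed to assign reads of KIF9, KIF22 and KIFC1, where a single gene on the opposite strand covers between 12.7% and 14.9% of the exon bases. Another opposite-strand gene covers 3.04% of those of KIF9. For KIF27, antisense genes cover 6.77% and 8.58%.

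**Figure D4:**
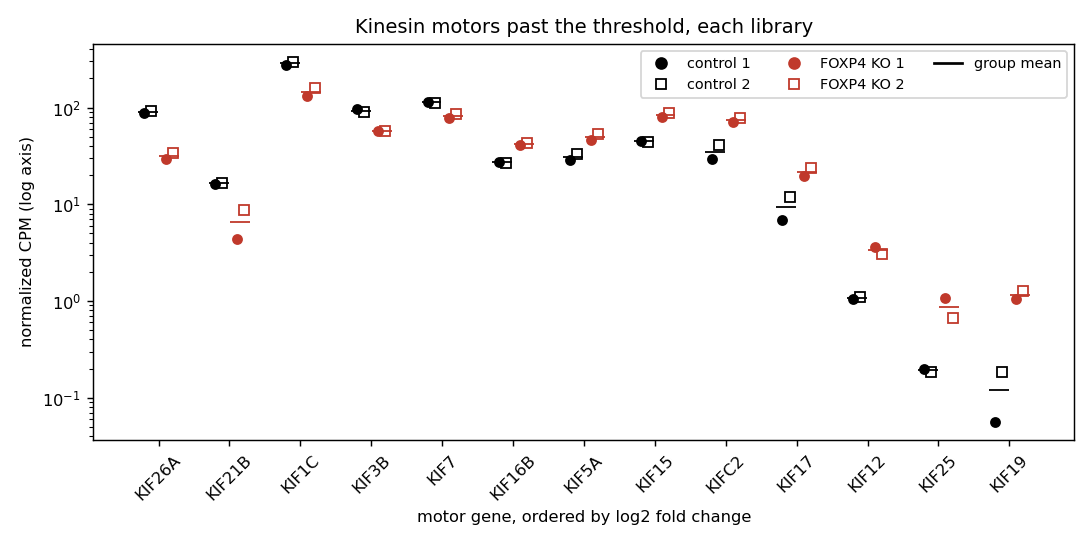
Normalized CPM (vertical axis, log scale) of the 13 motors past the threshold in each library, control in black and FOXP4 KO in red, circles for replicate 1 and squares for replicate 2, with lines at the group means. The 2 groups do not overlap for any of the 13, beside 68.7% of all genes tested without overlap. The 13 were picked by a test on these same libraries, so this adds no support. KIF17, KIFC2 and KIF19 show the widest gaps between the control libraries, at 1.75-fold, 1.39-fold and 3.28-fold.

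Of the 13 calls, 4 passed with each library left out in turn: KIF15, KIF26A, KIF1C and KIFC2. For the other 9 the highest adjusted p with a library left out was between 0.055 and 0.16, and 5 of the 13 passed without FOXP4 KO library 1, 6 without FOXP4 KO library 2, 9 without control library 1 and 11 without control library 2. Their direction was the same in every alternative fit. All 13 also kept their direction after the median of their neighbours was subtracted. Motors called for large changes are likely to do so, and KIF16B kept only 0.15 of its 0.62. The kept direction therefore does not separate a motor from its region. The last of the matching rows, KIF1BP, did not pass with edgeR, with a log2 fold change of −0.49 (edgeR adjusted p = 0.081) and 0.73-fold as much CPM in control library 2 as in library 1. DESeq2 called KIF1BP lower (adjusted p = 0.045), and edgeR did so without control library 2 (−0.71, adjusted p = 0.022).

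Genes that work with the motors were counted in lists, to be read against the 25.8% of all genes called. Of 24 kinesin light chains and adaptors, 4 were higher and 2 lower and 18 did not pass (median log2 fold change 0.05). KLC3, a kinesin light chain, rose by 1.97 ± 0.14 on the log2 scale, from 322 and 407 counts to 1589 and 1492 (SE, edgeR adjusted p = 0.0017), while KLC1 and KLC2 did not pass, at −0.27 and −0.01. SYBU, which links syntaxin vesicles to KIF5B, rose by 1.14 and RHOT1, which anchors the motor to mitochondria, by 0.58, and the scaffold gene MAPK8IP1 fell by 1.05.

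Of 32 spindle and cytokinesis genes, 2 were higher and 3 lower (median −0.07), and 27 did not pass. NUF2, a kinetochore gene, rose by 0.58, and the proliferation marker MKI67 and the APC/C activator CDC20 fell by 0.62 and 0.57. Of 16 transcription factor genes of the cell cycle, 5 were lower and 0 higher by edgeR. At an unadjusted p under 0.05 from edgeR, 1 was higher, beside 3158 of 14620 genes. MYBL2 had 20323 and 22861 counts in the control against 13443 and 14971 in KO cells and fell by 0.72, FOXM1 fell by 0.67 and E2F3 by 0.56. These factors act at CHR promoters or at E2F sites. The 5 mitotic kinesins with TTTGAA in their promoter window had log2 fold changes of 0.92 (KIF15), 0.26 (KIF18A), −0.05 (KIF23), −0.14 (KIF11) and −0.15 (KIF4A). Only this exact sequence was searched, on either strand before the start site, so the other mitotic kinesins are not shown to lack a CHR. The part of MYBL2, FOXM1 and E2F3 in the level of any mitotic kinesin was not tested.

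Dynein is the motor that runs towards the minus end, opposite to most kinesins. Of 27 genes of cytoplasmic dynein, dynactin and their adaptors, 5 were lower and 2 higher (median −0.14), among them ACTR1A, the filament of dynactin, with a fall of 0.67, and HOOK1, an adaptor, with a rise of 0.80. Of 27 genes of cilium transport and Hedgehog signalling, 5 were higher and 4 lower (median 0.11). IFT140 and IFT80 rose by 0.84 and 0.72. In the Hedgehog branch in which KIF7 acts, the target gene GLI1 rose by 1.18, from 126 and 130 counts to 273 and 356, while SMO, GLI3 and SUFU fell by 0.61, 0.79 and 0.52. PTCH1 and GLI2 of the same branch did not pass, at 0.06 and −0.006 (edgeR adjusted p = 0.75 and 0.99). Pathway output was not tested.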

How the data were processed

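HEK293T RNA was sequenced in 2 control and 2 FOXP4 KO libraries, grouped by sample title. The authors deposited raw counts per gene, in a table with 0 values of 0, and TPM values, which the authors scaled by gene length to nearly the same total per library. No source used here names an aligner, counter or strand setting. Builds in the submitters' processing notes are GRCm38 and mm10, both of the mouse, although the gene names are human. R 4.3.3 and edgeR 4.0.16 gave the main test (TMM scaling, filterByExpr, quasi-likelihood, Benjamini-Hochberg adjustment over 14620 genes, threshold 0.05). Standard errors are the log2 fold change divided by the root of F. Positions and overlaps come from GENCODE v29 (GRCh38) through the gene identifiers of the TPM table, or symbols where these had none (14611 tested genes placed), and promoters from RefSeq. Alternatives were DESeq2 1.42.0, limma 3.58.1 (voom, and trend on log2(TPM + 1) or log2(TPM + 0.1) with a mean of at least 1 TPM or no filter), other scalings and filters, a replicate block and each library left out. Scripts were tested on simulated data. Every matching gene could be named, and of each other list the up to 3 genes of lowest p per direction. KLC1, KLC2, CENPE, TICRR, FOXH1, PAX2, PTPRC, HBB, PTCH1 and GLI2 are outside that rule and were chosen after their values were seen, as were motifs and promoters. Members and lists were chosen with earlier results of these data known. There are no batches in the labels.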

Additional observations from a re-analysis of the deposited data

How the results depend on the processing

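The 13 motors past the threshold kept their direction in every alternative that gave a value, and all 13 passed with DESeq2, upper-quartile scaling, library size alone, no filter, limma-voom and the replicate block (12 of 12 with a minimum of 1 CPM in 2 libraries, where KIF25 was not tested). DESeq2 called 9 motors (3 of them mitotic), 5 adaptors and 5 spindle genes lower. Over all genes DESeq2 called 2205 higher and 2185 lower of 15218, against 2013 and 1765 of 14620 with edgeR. Limma-trend on log2(TPM + 1) and on log2(TPM + 0.1) called 5 motors higher (4 outside the mitotic group) and 2 adaptors, with medians of −0.039 and −0.041 for the other motors. Over all genes these fits called 1546 and 1494 higher. Without a filter on TPM limma-trend called 4 motors higher and 3 lower (3 and 3 outside the mitotic group), 1 adaptor higher, 1 dynein gene higher and 3 lower, and 3 cilium genes higher and 2 lower. Over all genes that fit called 1379 higher and 1306 lower. KIF16B did not pass on TPM in any of the 3 fits (0.41, 0.43 and 0.41, adjusted p = 0.072, 0.071 and 0.10), and KIF5A, KIF7, KIF17, KIF21B and KIF25 did not pass without the filter, where KIF19 and KIF25 stood at 0.64 and 0.67 on log2(TPM + 1). At an unadjusted p under 0.05 and a log2 fold change beyond 1.2, 3 motors were higher and 2 lower, none of them mitotic (0), among 883 and 345 genes in all, with 1 adaptor higher and 0 lower and 0 genes called in each direction in the spindle, transcription factor, dynein and cilium lists. With upper-quartile scaling 2 mitotic kinesins, KIF15 and KIF20A, were higher and 1 adaptor was lower, the medians were 0.033 (mitotic) and 0.107 (other), and 2383 genes were higher and 1368 lower (63.5% higher, against 53.3%). The mitotic median was −0.0099 on library size alone.

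With 1 library left out, the group that lost it keeps a lone library, which is assumed to vary like the others. Then 3 to 8 motors were higher and 2 to 4 lower (2 to 7 and 2 to 4 outside the mitotic group), against 639 to 2013 and 467 to 1614 of all genes. Adaptors had 1 to 3 higher and 0 to 4 lower, spindle genes 0 to 1 higher and 0 to 6 lower, transcription factors 0 to 4 lower, dynein genes 1 to 1 higher and 0 to 3 lower, and cilium genes 0 to 3 higher and 0 to 2 lower. The medians ranged from −0.136 to −0.021 (mitotic) and from −0.033 to 0.073 (other). Some motors near 0 that were not called changed sign: KIF21A with DESeq2 (−0.012), KIF23, KIF2C and KIF5C with upper-quartile scaling (0.029, 0.036 and 0.026), and KIF2A on TPM (−0.032 with a pseudocount of 1). With a library left out KIF20B ranged from −0.212 to 0.288, KIF21A from −0.133 to 0.114, KIF2A from −0.150 to 0.266, KIF3C from −0.046 to 0.141 and KIF5C from −0.166 to 0.039. The cause of these shifts was not tested.

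No shared effect of the replicate number was seen: the within-group differences of same-numbered libraries correlated at −0.0026 across genes. This value cannot show whether same-numbered libraries were prepared together. With the replicate block 1 spindle gene was higher, and KIF1A passed (log2 fold change 0.65, adjusted p = 0.029 from edgeR). Depth limits KIF19, KIF25 and KIF4B most, since each had under 10 counts in both control libraries.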
